A study of Homo sapiens with 41 samples.

Results

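Peaks of Elongin A at the 3′ ends of protein-coding transcripts were examined in DLD1 cells. A peak was included when its summit, the position of highest signal, lay from 100 bp upstream to 1000 bp downstream of the end of a protein-coding transcript and more than 1 kb from every transcription start site (TSS) of a protein-coding or lncRNA gene. The rule used positions only, with GENCODE transcripts on hg19. It selected 284 of the 8720 peaks of the goat antibody list (3.26%, Wilson 95% interval 2.90 to 3.65%). The end windows held 491 summits in all, of which 207 were left out because they lay within 1 kb of a TSS. These peaks are called end peaks here. Their fold enrichment, width, sequence and overlap with the other lists played no part in the choice.

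The peaks came from CUT&RUN, in which an antibody bound to a chromatin protein directs a nuclease to cut the DNA around it. DLD1 is an established human colon cancer cell line, and the cells used here were wild type, received no siRNA and were fixed with formaldehyde. The goat antibody against Elongin A was used in 2 replicates with 1 goat IgG control, and the authors deposited a single list for these 3 samples. Comparison lists came from a mouse antibody against Elongin A (1 sample, with 1 mouse IgG control) and from Elongin A ChIP-seq (1 sample, with 1 input), in DLD1 cells without siRNA as well.

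Because the list does not separate the replicates, each peak has 1 value and no replicate error. No test between samples could be made. Read totals are not given, and the sequencing depth behind each value is therefore unknown. The intervals below are at the 95% level. They are Wilson intervals for shares, distribution-free binomial intervals for medians and exact Poisson intervals for densities. They cover counting error only, and peaks of 1 list are not replicates.

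Elongin A is the transcriptionally active subunit of Elongin, a complex that was found to stimulate elongation by RNA polymerase II (RNAPII) in vitro. At the end of most coding genes, the nascent transcript is cleaved a short distance past a poly(A) signal, most often AATAAA or ATTAAA in the DNA, and a poly(A) tail is added. RNAPII continues beyond the cleavage site before it is released. Transcripts of replication-dependent histone genes are an exception, since they end after a stem-loop and carry no poly(A) tail. Many genes have several transcript ends, and the end of a short isoform can lie well inside the gene.

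The DNA at the end and under the summit is shown for the 6 strongest end peaks whose summit lay at the main end of a gene with a poly(A) signal and whose 100 summit bases touched no annotated exon of a coding or lncRNA gene. The main end is that of the MANE Select transcript, or otherwise of the Ensembl canonical or longest coding transcript. For each gene, the first sequence gives 30 transcript bases that hold the poly(A) signal, in capitals, and finish at the annotated end, from the GRCh37 (hg19) assembly on the strand of the gene.
EIF4A2 end (chr3:186507657-186507686, + strand): atgttaAATAAAttgtatattcactttaaa
IFITM5 end (chr11:298200-298229, − strand): tccacgATTAAAagtgcctggttccagaaa
NAT16 end (chr7:100813777-100813806, − strand): tgtatgacAATAAAatggaccttttggcca
RPL13A end (chr19:49995536-49995565, + strand): gtaatcagaAATAAAttgcttttaaagaaa
TRIM41 end (chr5:180662779-180662808, + strand): tgtggaAATAAAatgtttatttgcttctct
UBE2S end (chr19:55911113-55911142, − strand): agtgcatAATAAAaataatatttgccctta

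In these 6 ends the signal was followed by 15 to 18 bases up to the annotated transcript end. The second set gives the 100 bases centred on each summit, on the strand of the same gene, to show the DNA where the Elongin A signal was highest. Distances are from the main end, and the RPL13A summit lay 140 bp past another annotated coding end of that gene. The word GGGAGGG would be in capitals on either strand, and none of the 6 sequences holds it. In the wider 200 bp window used below, the IFITM5 peak does hold it.
EIF4A2 summit (chr3:186508299-186508398, 662 bp past the end): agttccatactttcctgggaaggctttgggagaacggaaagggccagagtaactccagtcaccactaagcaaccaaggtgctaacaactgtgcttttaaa
IFITM5 summit (chr11:297736-297835, 415 bp past the end): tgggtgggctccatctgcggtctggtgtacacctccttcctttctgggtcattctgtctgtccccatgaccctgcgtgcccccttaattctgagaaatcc
NAT16 summit (chr7:100813028-100813127, 700 bp past the end): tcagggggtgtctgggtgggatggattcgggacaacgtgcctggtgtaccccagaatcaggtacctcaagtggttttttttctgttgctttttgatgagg
RPL13A summit (chr19:49996405-49996504, 889 bp past the end): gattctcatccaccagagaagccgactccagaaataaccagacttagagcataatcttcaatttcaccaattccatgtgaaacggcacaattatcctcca
TRIM41 summit (chr5:180663003-180663102, 244 bp past the end): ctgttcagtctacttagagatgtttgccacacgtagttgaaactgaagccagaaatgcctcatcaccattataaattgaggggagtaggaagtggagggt
UBE2S summit (chr19:55910867-55910966, 197 bp past the end): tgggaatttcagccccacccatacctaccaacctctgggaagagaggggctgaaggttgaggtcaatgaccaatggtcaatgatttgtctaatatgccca

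Over all end peaks, AATAAA was found in the last 40 bases of the assigned transcript at 135 of 284 ends (47.5%, interval 41.8 to 53.3%), and ATTAAA without AATAAA at 32 (11.3%). Only the transcript strand was searched. At the 160 end peaks assigned to a main end, AATAAA was present at 112 (70.0%, interval 62.5 to 76.6%) and neither word at 27 (16.9%). For comparison, 62.3% of all 19708 main ends of coding genes held AATAAA and 23.8% held neither word. Of all 74766 distinct ends of coding transcripts, 32.6% held AATAAA and 59.2% held neither. At main ends, the interval for end peaks overlapped that of all main ends (61.6 to 62.9%). A main end with several end peaks, such as that of SOX9, was counted for each of them. At the 124 end peaks assigned to other ends, AATAAA was present at 23 (18.5%, interval 12.7 to 26.3%), against 22% of the 55058 other ends. Main ends were given priority in assignment and made up 56.3% of the end peaks, so the shares over all end peaks and over all ends mix these kinds of end differently.

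The GC content and a G-rich word were then read under the summits. In 200 bp centred on the summit, the median GC content was 44.2% for end peaks, with an interquartile range of 38.0 to 51.5%, against 44% for the whole list and 53.0% for peaks within 1 kb of a coding TSS. Windows of the same length were placed 475 bp past main ends, the median distance of end peaks from main ends. The 17313 windows used, fewer than the 19708 main ends, had a median of 45.5%, and the 160 end peaks at main ends had 47%. The word GGGAGGG was found on either strand at 22 of all end peaks (7.75%, interval 5.17 to 11.4%), at 15 of those at main ends (9.38%, 5.76 to 14.9%) and in 7.40% of the 17313 windows. The 32 bp at the summit occurred more than once in the genome for 11 end peaks (3.87%), among them RPL24, EIF3K, NOLC1 and KPNA2. Copies were not counted for the other peaks of the list. The sequence occurred 7 times for RPL24 and 2794 times for the KPNA2 peak at the main end, which limits how surely that peak can be placed.

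End windows held more summits per base than the genome as a whole. Between them, the windows cover 40.4 Mb of sequence more than 1 kb from a TSS, and the 284 end peaks gave 7.02 summits per Mb (exact Poisson interval 6.23 to 7.89). The whole list gave 3.05 summits per Mb of ungapped sequence, a ratio of 2.303 (interval 2.04 to 2.59). Peaks and sequence near a TSS were left in on the genome side of this ratio. When sequence up to 2 kb from a TSS was excluded from the end windows as well, the ratio was 1.89.

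The position of the excess was read from summits around the main ends of 19821 coding genes, again with sequence near a TSS removed. Density was 4.38 per Mb from 5 kb to 1 kb upstream of the end and 7.92 per Mb (interval 6.62 to 9.41) in the last 1 kb of the gene. It reached 9.69 per Mb (8.28 to 11.3) in the first 1 kb past the end. It was 6.72 per Mb (5.54 to 8.07) in the next 1 kb and 4.80 per Mb (4.21 to 5.45) from 2 to 5 kb past the end. From 5 to 10 kb past the end it was 4.63 per Mb. The interval of the first 1 kb past the end overlapped that of the last 1 kb of the gene and that of no other zone. A summit near several ends was counted at each of them.

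The profile was steeper at genes that also had a peak within 1 kb of a TSS of their own. This TSS need not be that of the main transcript, so the peak could lie inside the gene. At the 2237 genes with a peak at a TSS, density rose from 17.7 per Mb far upstream of the end (14.6 to 21.4) to 30.1 per Mb in the last 1 kb (22.6 to 39.4). It was 42.3 per Mb in the first 1 kb past the end (33.4 to 52.8), 22.5 per Mb in the next (16.0 to 30.6) and 8.36 per Mb from 5 to 10 kb past it. At the 17584 genes without a peak at a TSS, density was 2.85 per Mb far upstream (2.42 to 3.34). It was 5.26 (4.15 to 6.57) and 5.84 per Mb (4.70 to 7.18) on either side of the end. It was 4.87 per Mb in the next 1 kb (3.83 to 6.12) and 4.18 per Mb from 5 to 10 kb past the end (3.73 to 4.67). The intervals on either side of the end and in the next 1 kb overlapped, so no maximum past the end was resolved for these genes.

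**Figure D1:**
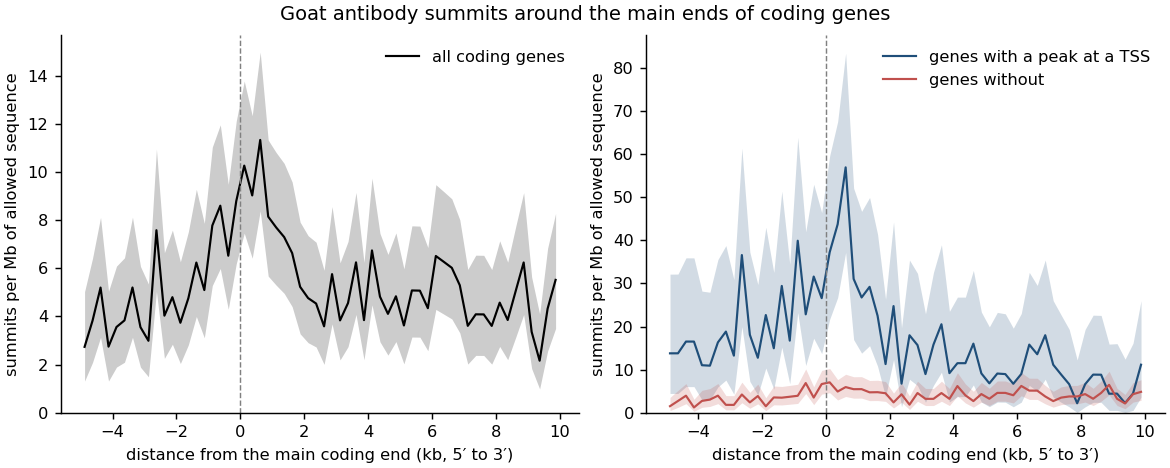
Goat antibody summits per Mb of allowed sequence (more than 1 kb from a TSS) in 250 bp bins of distance from the main coding end, for all coding genes (left) and for genes with and without a peak within 1 kb of a TSS (right, different scale). Lines are densities and bands are exact Poisson 95% intervals. Density is highest in the first 1 kb past the end for all coding genes and for genes with a peak at a TSS. The curve for genes with a peak at a TSS lies above the other there. For genes without one, the bands near the end overlap and no maximum past the end is resolved.

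Of the 284 end peaks, 160 (56.3%, interval 50.5 to 62.0%) lay at the main end of a gene, 10 at an outermost alternative end and 114 (40.1%, 34.6 to 45.9%) at an end inside the gene. The summit was past the last base of the whole gene for 146 end peaks, of which 137 were at main ends. The peaks at internal ends are gene body peaks by position. Their summits lay a median of 1.82 kb upstream of the main end of the gene (interquartile range 0.884 to 5.57 kb), and 84 of 114 were within 5 kb of it. By location, 114 summits were in an exon of a coding gene, 66 in an intron and 104 outside coding genes. The peak itself ran across the assigned end in 115 cases (40.5%).

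Summits were spread over the whole window downstream of the end. The first 250 bp held 68, the next 69, the third 69 and the last 50, while the 100 bp upstream of the end held 28. Median fold enrichment in these bins was 4.73, 4.90, 4.91, 4.56 and 4.43, with overlapping intervals. At the edges, ALAS2 was the last included at 991 bp and HSP90AA1 the first left out at 1007 bp, with fold enrichments of 4.85 and 3.90. Upstream, RPLP0 was included at 97 bp (3.79) and PRTFDC1 left out at 106 bp (4.57). Relative to the TSS, SLC2A1 was included at 1010 bp (4.33) and SEC14L2 left out at 992 bp (3.92).

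**Figure D2:**
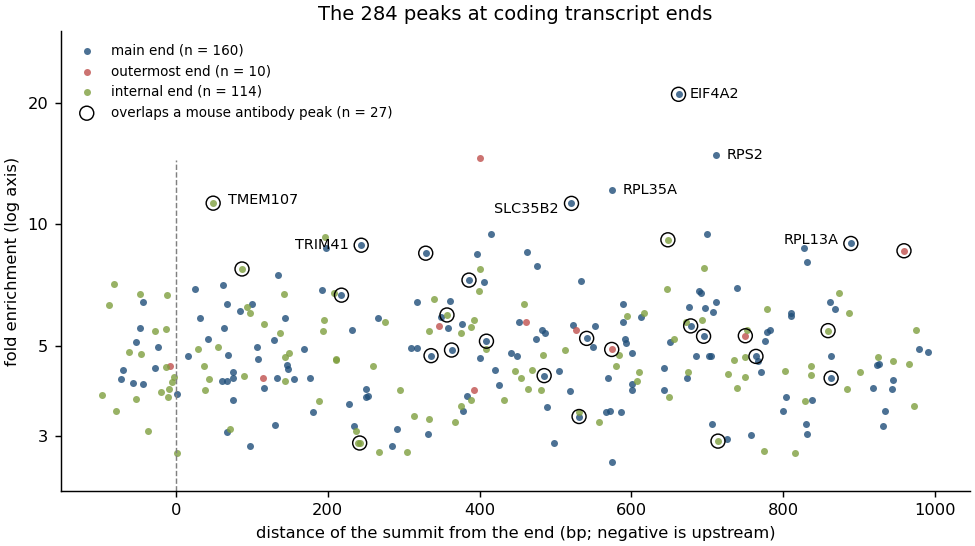
Fold enrichment over goat IgG (log axis) of the 284 end peaks against the distance of the summit from the assigned end in bp, by class of end, with peaks that overlap a mouse antibody peak circled. The strongest peaks, such as EIF4A2 at 21.0 and RPS2 at 14.8, lie 662 and 711 bp past a main end, and most peaks lie between 3 and 10 at every distance.

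End peaks were somewhat stronger and often wider than other peaks of the list. Fold enrichment is the ratio of signal to local goat IgG background as the authors' peak caller gave it. Its median was 4.74 at end peaks (interval 4.53 to 4.93, interquartile range 3.93 to 5.87, range 2.59 to 21.0) and 4.32 over the whole list (4.31 to 4.34). It was 4.34 for the 2295 peaks within 1 kb of a coding TSS (4.31 to 4.40), 4.30 for the 3383 peaks elsewhere in coding gene bodies (4.19 to 4.32) and 4.44 for the 343 peaks 1 to 10 kb past a coding gene (4.21 to 4.63), the only one of these classes whose interval overlapped that of end peaks. At main ends the median was 4.84 (4.65 to 5.15), and at internal ends it was 4.56 (4.33 to 4.81).

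The strongest 20.1% of the list by fold enrichment (5.52 or more) contained 91 end peaks (32%, interval 26.9 to 37.7%). It contained 21.1% of the peaks near a coding TSS and 18.1% of those elsewhere in coding gene bodies. Median width was 430 bp against 362 bp for the whole list. A width of at least 1 kb was reached by 55 end peaks (19.4%, interval 15.2 to 24.4%), against 4.51% of all peaks and 5.23% of peaks near a coding TSS. These broad end peaks had a median fold enrichment of 6.26 (5.75 to 7.24), and 44 of the 55 ran across the assigned end. Because the rule keeps the summit within 1 kb of the end, a peak this wide can often reach the end by its width alone. The genes of the broad end peaks had a median length of 7.90 kb, against 15.2 kb for the genes of all end peaks and 27.2 kb for all coding genes. End peaks made up the highest share of the list on chromosome 16, with 21 of 280 peaks (7.5%). Chromosome 17 held the most, 27 of 482 (5.60%), and chromosome 21 held none of its 88.

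The strongest end peak was at EIF4A2, which encodes an RNA helicase that unwinds mRNA during the start of translation. It lay at chr3:186503911-186509461 with a fold enrichment of 21.0, and 5 peaks of the whole list were stronger. At 5551 bp it covered much of the gene and continued past the end, with the summit 662 bp downstream. That summit also fell in an intron of RFC4, the neighbouring gene on the opposite strand, 1291 bp from its nearest TSS. The strongest peak within 1 kb of any annotated TSS of EIF4A2 had a fold enrichment of 6.60. That peak lay inside the gene, with its summit at -4653 bp from the main end. The main transcript starts at -6320 bp, and the peak with its summit at -6726 bp had 4.16.

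RPS2, a protein of the small ribosomal subunit, had the next strongest, at chr16:2010559-2012281. Its fold enrichment was 14.8, with the summit 711 bp past the end and in an intron of NDUFB10. The strongest peak within 1 kb of any annotated TSS of RPS2 had 3.47. That peak lay inside the gene, with its summit at -1639 bp from the main end. The main transcript starts at -2768 bp. RPL35A, a protein of the large subunit, had 12.1 at chr3:197682930-197684658, 574 bp past the end and in an intron of IQCG. A second end peak at an internal end of RPL35A had 4.26.

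A small RNA gene stood next to the peak at TMEM107, a protein of the ciliary transition zone. It had a fold enrichment of 11.3 at chr17:8075817-8077628, with its summit 266 bp from SNORD118, the U8 snoRNA gene. Only 4 of the 284 end peaks had a small RNA gene within 500 bp of the summit, among them RPS3A (SNORD73A) and RPL5 (SNORA66).

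The other peaks named among the 10 strongest had fold enrichments from 9.16 to 11.3. The peak assigned to SLC35B2, a transporter of the sulfate donor PAPS into the Golgi, had 11.3 at chr6:44220680-44223729. Its summit was 521 bp past the SLC35B2 end but inside an exon of HSP90AB1, which encodes a cytosolic HSP90 chaperone, and its 32 bp occurred 2 times in the genome. IFITM5, known for its role in bone, had 9.49 at chr11:297482-298071, and NAT16 had 9.47 at chr7:100812530-100813367. Neither had a peak at its own TSS. SERP1, a stress-associated protein of the endoplasmic reticulum, had 9.32 at chr3:150261586-150262030, and RBM39, a splicing factor, had 9.16 at chr20:34320263-34324549. Both of these lay at internal ends, and each gene had a second end peak, with 6.34 at SERP1 and 6.26 at RBM39.

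Assignment to 1 gene was therefore not always clear. For 47 end peaks (16.5%) the summit was inside a coding gene other than those whose end windows held it, and for 37 of these that gene was on the opposite strand. In 31 cases (10.9%) the summit was in end windows of genes on both strands, which meet tail to tail. The strongest of these lay between TRIM41, a ubiquitin ligase, and RACK1, a ribosome-associated scaffold, at chr5:180662017-180663998 with a fold enrichment of 8.89. HCFC1R1 and TNFRSF12A shared a peak of 8.45, and TNFAIP1 and POLDIP2 one of 7.52. The nearest TSS was within 2 kb for 91 end peaks (32%), and in 29 of these it belonged to a gene whose end windows did not hold the summit.

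**Figure D3:**
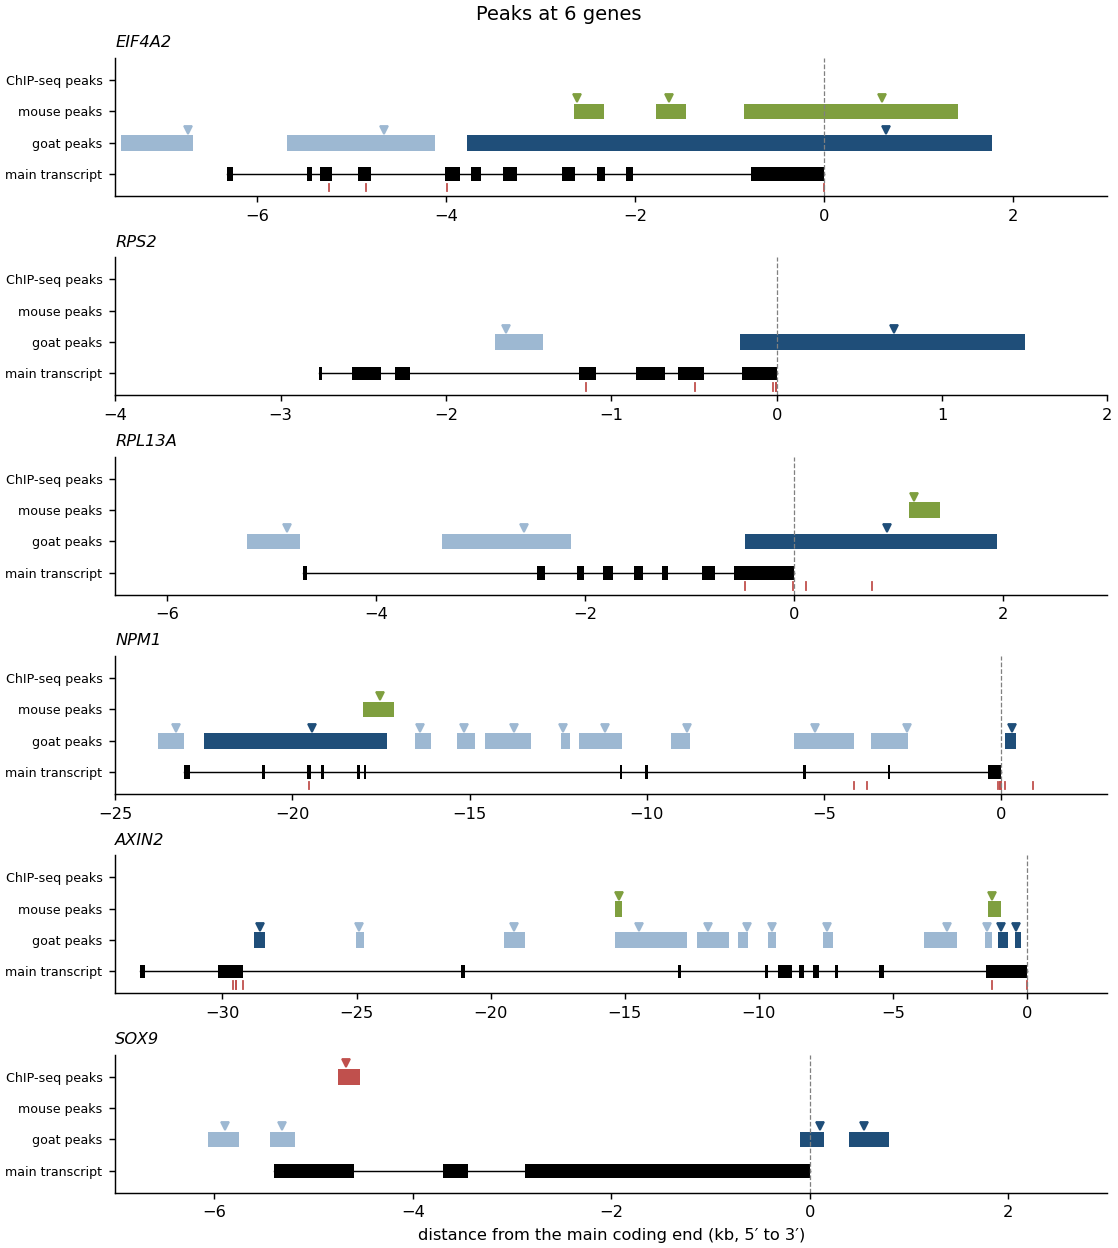
Peaks around 6 genes in kb from the main coding end, drawn 5′ to 3′. Black boxes are exons of the main transcript, red ticks the ends of other coding transcripts, dark blue bars end peaks, light blue bars other goat antibody peaks, green bars mouse antibody peaks and red bars ChIP-seq peaks, and triangles mark summits. At EIF4A2, RPS2 and RPL13A a broad peak crosses the main end, whereas at NPM1 and AXIN2 most peaks lie in the body.

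End peaks were compared with the strongest peak within 1 kb of a TSS of the same gene. The TSS of any annotated transcript counted, so this peak could lie inside the gene. At AXIN2, for example, it lay at -7444 bp from the main end, and the main transcript starts at -33085 bp. A peak within 1 kb of a TSS of the gene was found for 132 end peaks (46.5%, interval 40.8 to 52.3%), and a further peak in the body for 103. For 105 (37%) the gene had neither. Median fold enrichment was 5.17 (4.77 to 5.56) for end peaks of genes with a peak at a TSS and 4.48 (4.21 to 4.74) for those without. Within the 132 pairs, the median at the TSS was 4.90 (4.49 to 5.26), and the ratio of end to TSS had a median of 1.05 (0.907 to 1.18), with a range of 0.307 to 4.28. The end peak was the stronger in 70 pairs (53.0%, interval 44.6 to 61.3%). The largest ratio was that of RPS2, at 4.28, where the peak counted at a TSS lay inside the gene. Across pairs the strengths at the ends and at the TSSs had a Spearman correlation of 0.055 and a Pearson correlation of 0.063. The points share the same libraries, and some genes contribute more than 1 pair.

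Gene length went with the presence of an end peak among genes with a peak at a TSS. In genes under 5 kb with such a peak, 25 of 193 had an end peak (13.0%, interval 8.93 to 18.4%). The share was 12.2% at 5 to 10 kb (8.70 to 16.7%), 8.33% at 10 to 20 kb (5.93 to 11.6%), 3.83% at 20 to 50 kb (2.54 to 5.73%) and 1.99% at 50 kb or more (1.21 to 3.26%). Among genes without a peak at a TSS it was 1.02% under 5 kb (0.695 to 1.51%) and 0.685% at 50 kb or more (0.503 to 0.931%), with values of 0.994 to 1.09% between. Length was taken over the whole gene, and only the 19176 coding genes with some end window sequence over 1 kb from a TSS were counted.

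**Figure D4:**
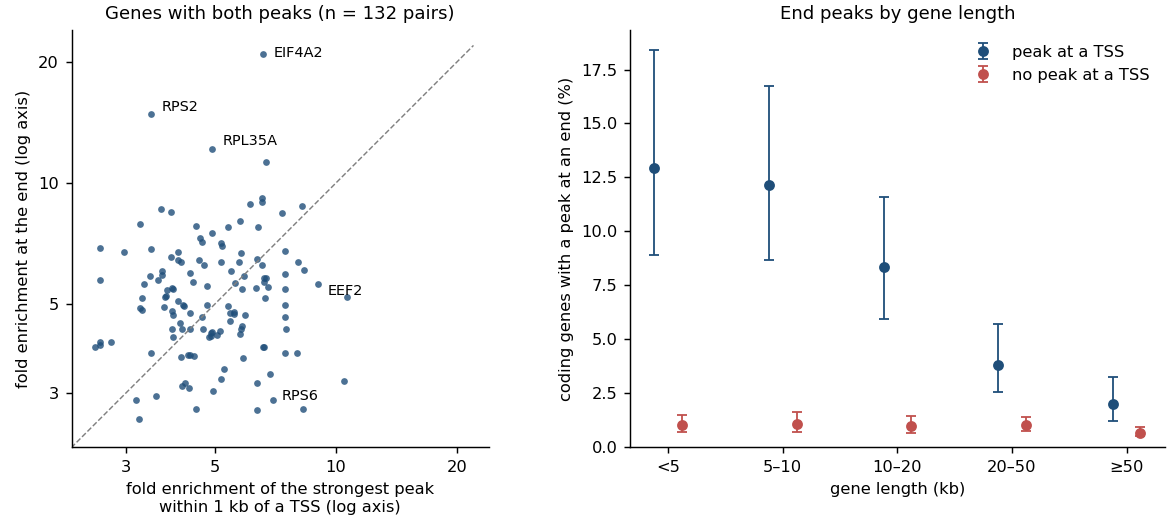
Left, fold enrichment of end peaks against that of the strongest peak within 1 kb of a TSS of the same gene (both log axes; the dashed line marks equal values). Right, share of coding genes with an end peak by gene length, for genes with and without a peak at a TSS, with Wilson 95% intervals. The share falls from 13.0% to 1.99% with length among genes with a peak at a TSS and stays at 1.09% or below among the others.

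An end peak was found at 279 of the 19176 coding genes (1.45%, interval 1.29 to 1.63%), and 36 genes had 2 or more. AXIN2, a negative regulator of WNT signaling, and ZFAND5, a zinc finger protein that binds ubiquitin, had 3 each. Those of AXIN2 had fold enrichments of 5.98, 4.32 and 3.74 and those of ZFAND5 4.66, 3.93 and 3.36. All 6 lay at internal ends, and AXIN2 held 12 goat antibody peaks in the mapped region. Gene lists, fixed by symbol, were used to describe the genes involved.

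The list of cytosolic ribosomal proteins, the subunits of the cytosolic ribosome, had the highest share of genes with an end peak. It was 29 of 83 genes (34.9%, interval 25.6 to 45.7%), against 208 of 18258 genes in no list (1.14%, 0.995 to 1.30%). The 38 end peaks at these genes had a median fold enrichment of 5.22 (4.48 to 5.92), and for 26 of them the assigned gene had a peak at a TSS. They were led by RPS2, RPL35A and RPL13A, the last with 8.97 at chr19:49995099-49997509. The RPL13A summit lay 889 bp past the main end and 140 bp past another annotated coding end of the gene. The lowest was RPS6, with 2.89. In 18 of the 38, the summit was past the end of the assigned gene. Ribosomal protein genes are short and many had a peak at a TSS, so the shares were also taken within those classes. Among genes under 20 kb with a peak at a TSS, an end peak was found at 17 of 41 ribosomal protein genes (41.5%, 27.8 to 56.6%) and 70 of 779 other genes (8.99%, 7.17 to 11.2%). Among genes under 20 kb without one, it was found at 8 of 27 (29.6%, 15.9 to 48.5%) and 65 of 7060 (0.921%, 0.723 to 1.17%). By contrast, none of 75 mitochondrial ribosomal protein genes had an end peak (upper limit 4.87%).

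Among translation factors, 8 of 67 genes had an end peak (11.9%, interval 6.18 to 21.8%). EIF4A2 was the strongest, and the next were EIF3G, a subunit of the initiation factor eIF3, with 5.91, and EEF2, the factor that moves the ribosome along the mRNA, with 5.62. The median over the list was 4.27. Genes of RNA-binding proteins that act in splicing were also frequent. The hnRNP list had 5 of 24 genes (20.8%, 9.24 to 40.5%), led by HNRNPAB at 8.55, HNRNPA3 at 6.34 and HNRNPDL at 6.05. The SR protein list had 4 of 14 (28.6%, 11.7 to 54.6%), with 7.83 at SRSF3, 5.46 at SRSF7 and 5.13 at SRSF9. The peaks of SRSF3, SRSF7 and HNRNPDL were at internal ends.

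Replication-dependent histones had an end peak at 5 of 52 genes (9.62%, interval 4.18 to 20.6%). These were H4C5 with a fold enrichment of 6.17, H2AC11 with 5.41, H2BC4 with 4.80, H1-2 with 4.02 and H2AC15. All of these genes encode core or linker histones made in S phase. The list of immediate early and stress genes, which are induced within minutes of a stimulus, had 6 of 22 (27.3%, 13.2 to 48.2%). FOS had 6.74 at an internal end and IER2 4.23 past its main end, and a peak of 5.20 lay in windows of both CCDC85B and FOSL1. Its median was 4.03, below that of all end peaks.

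Glycolysis genes had an end peak at 4 of 18 (22.2%, interval 9.0 to 45.2%), with 6.34 at PKM, 5.69 at LDHA and 4.33 at SLC2A1, the glucose transporter GLUT1. These 3 lay at internal ends. The list of WNT targets and intestinal regulators had 3 of 16 (18.8%, 6.59 to 43.0%), namely AXIN2, SOX9 and CDX2. SOX9, a transcription factor of intestinal crypts, had 2 end peaks, with 4.97 at 550 bp and 4.65 at 108 bp past its only annotated coding end, and 7.49 at its TSS. Actin and tubulin genes had 2 of 20 (10.0%), TUBA4A with 4.97 and TUBB4B with 4.72.

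Other lists were near the share of genes in no list or had no end peak. Heat shock and chaperone genes had 2 of 78 (2.56%, interval 0.706 to 8.88%), HSPA8 with 6.42 and HSPA5, the chaperone BiP, with 6.34 and 3.68. Oxidative phosphorylation genes had 3 of 106 (2.83%, 0.967 to 7.99%), NDUFA11 with 5.61, SDHD with 5.31 and NDUFA8 with 3.03. None was found at 46 proteasome genes (upper limit 7.71%), 245 zinc finger genes of chromosome 19 (1.54%), 30 genes of RNAPII subunits and elongation factors (11.4%) or 22 genes of 3′ end processing and termination (14.9%). Several lists are small, and their intervals are wide.

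**Figure D5:**
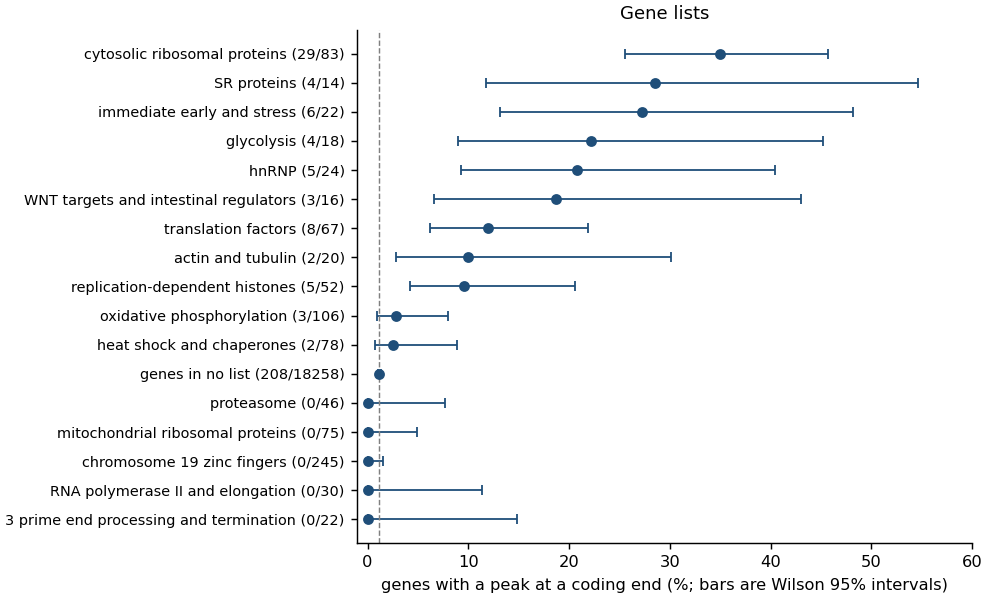
Share of coding genes with an end peak in each gene list, with the number of genes behind it and Wilson 95% intervals; the dashed line is the share of genes in no list, 1.14%. Cytosolic ribosomal proteins stand at 34.9% and mitochondrial ribosomal proteins at 0.

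The mouse antibody gave a comparison from a separate sample. An overlap of at least 1 bp with a mouse antibody peak was found for 27 end peaks (9.51%, interval 6.62 to 13.5%), against 8.33% of the whole list and 9.28% of peaks near a coding TSS. The overlap was at 12 of the 71 strongest end peaks by fold enrichment and at 3 of the 71 weakest. No such split by strength is given for the whole list, so this difference cannot be called particular to end peaks. Width also moved with it. Of the 55 end peaks at least 1 kb wide, 12 overlapped (21.8%, 12.9 to 34.4%), against 30.8% of all such peaks, and of the 229 narrower ones 15 did (6.55%, 4.01 to 10.5%), against 7.27%. With only mouse antibody peaks at a q-value under 0.001, the share of end peaks was 3.52%. The share of the whole list was not computed at this setting, and a shorter mouse antibody list can only lower the overlap.

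The 5 strongest end peaks with a mouse antibody peak were EIF4A2, TMEM107, SLC35B2, RBM39 and RPL13A. Their fold enrichments in the mouse antibody list were 4.91, 8.08, 4.48, 4.18 and 4.70. At EIF4A2 the summits of the 2 lists lay 662 and 612 bp past the end. RPS2 and RPL35A had no overlap with the mouse antibody list. At genes with a peak at a TSS the overlap was 13.6% of end peaks (8.80 to 20.5%) and at the others 5.92% (3.15 to 10.9%), with overlapping intervals. The whole list was not split in this way.

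Elongin A ChIP-seq peaks overlapped 6 end peaks (2.11%, interval 0.972 to 4.53%), against 0.837% of the whole list, 1.13% of peaks near a coding TSS and 2.04% of peaks 1 to 10 kb past a coding gene (0.992 to 4.15%). TMEM107 had a ChIP-seq fold enrichment of 17.9 at the peak beside SNORD118. H1-2, a linker histone, had 11.1 in ChIP-seq and 4.02 in CUT&RUN. ID2, an inhibitor of helix-loop-helix transcription factors, had 9.55 and 7.29, and it also overlapped a mouse antibody peak. ZFP36L1, which promotes the decay of AU-rich mRNAs, had 5.18 and 3.95. CCN1, a secreted matrix protein, had 7.30 in ChIP-seq and, at 2.59, the lowest fold enrichment of all end peaks. TMEM107 and ID2 were the end peaks found in all 3 lists.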

How the data were processed

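Per the labels and the methods of the study, the authors used Bowtie2 (v2.3.4.1) to align paired-end reads to the hg19 genome, Picard to remove duplicates, and MACS2 (v2.1.1) with its default settings to find peaks against goat IgG, mouse IgG or input. Whether the 2 goat antibody replicates were pooled before calling is not given in the sources used here. The deposited fold enrichment is a ratio to local control background, and the deposited −log10 q-value reaches down to a q-value of 0.05. The summit offset gives the position of each summit. The authors' lists were used as deposited, with positions counted from 1.

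Transcripts came from GENCODE release 44 lifted to GRCh37. Genes of the list are those whose end windows hold a summit, and a summit in several windows was assigned to a main end first, then an outermost end, then the nearest. Peaks of different lists were taken as overlapping when they shared 1 bp or more, as in bedtools (v2.27.1), which the authors used. Because each list has 1 value per peak, no p-value was computed. Genes named are the 10 strongest (1 of which is not reported here), those with most end peaks, the strongest with mouse antibody or ChIP-seq overlap (5 each) or on both strands (3), those shown by the study (of which SOX9 qualified), up to 3 per gene list and those at each limit. UBE2S, RPL24, EIF3K, NOLC1, KPNA2, RPS3A, RPL5, RPS6, NPM1, CDX2, H2AC15, CCN1 and the genes over a named summit were chosen after their values were seen. The end peaks and the 16 gene lists were chosen with earlier results of these data known. The positional rule, the overlaps and the median intervals were tested on simulated data. Python 3.11.15, numpy 2.4.6, scipy 1.17.1, pandas 2.3.3, pysam 0.24.0 and matplotlib 3.10.9 were used. RNAPII, RNA-seq and 4sU-seq samples were not analysed here.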

Additional observations from a re-analysis of the deposited data

How the results depend on the processing

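The 5 values that describe the end peaks as a whole (their number, the share at main ends, the median fold enrichment, the share with a mouse antibody overlap and the density ratio) were recomputed under 15 alternatives, and the mouse overlap under 3 more. The density ratio stayed above 1 throughout, from 1.88 to 3.18. The number stayed within 1.5 times of 284 under 11 of the 15, the share at main ends within its interval under 11, the median under 13, the mouse overlap under 16 of 18 and the ratio under 8. With fold enrichment of at least 5, there were 118 end peaks with a median of 6.10, a mouse overlap of 15.3% and a ratio of 3.18. A q-value under 0.001 gave a median of 5.20. A window to 500 bp gave 169 end peaks, and one to 2000 bp gave 432 with a ratio of 1.98. With main transcripts only, there were 160, all at main ends (100%), with a ratio of 2.87. Basic coding transcripts gave 65.0% at main ends and a ratio of 2.68, and all transcripts of coding genes gave 41.9% and 1.88. With TSSs of gene records only, 50.0% were at main ends. The ratio was 2.0 with peaks within 1 kb merged and 1.89 with a TSS exclusion of 2 kb. Mouse antibody peaks with a q-value under 0.001 gave an overlap of 3.52% of end peaks, with no whole-list share computed beside it. Where no construction explains a shift (fewer peaks, ends or bases), the cause was not tested.

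No paired analysis was possible because the deposited list does not separate the goat antibody replicates, and for the same reason none was left out. Without read totals, no peak's precision is known.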
